A study of Mus musculus with 23 samples.

Results

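This comparison covers the response of Selenow knock-out macrophages to 24 h of bacterial lipopolysaccharide (LPS). Its members are the 2 libraries titled as knock-out at 24 h (libraries 22 and 23) and the 3 titled as knock-out at 0 h (libraries 13, 14 and 15), which makes 5 of the 23 libraries of the series. They were chosen by their titles, and all 55401 genes of the count table entered. The series profiled RNA from bone marrow-derived macrophages, cells grown from mouse bone marrow, of wild-type and Selenow knock-out mice, either untreated or after LPS for 4, 8 or 24 h. The untreated group is knock-out cells without LPS at 0 h, and the treated group is knock-out cells given LPS at 100 ng/ml for 24 h. Both groups carry the same label of genotype, so the comparison describes LPS and time within that genotype. The labels give neither the part of Selenow that was removed nor the age of the mice. They also leave out whether libraries stand for different mice or dishes, so the p-values below rest on library spread, which may be technical. With untreated cells sampled only at 0 h, LPS and a further 24 h in culture cannot be told apart. Values per library are given in the order 13, 14 and 15 for untreated cells and 22 and 23 for 24 h, as CPM, counts relative to library size with totals scaled by the TMM method, which compare libraries for a gene but not genes of different length.

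LPS is a component of the outer membrane of Gram-negative bacteria. Macrophages sense it through Toll-like receptor 4 and its partners CD14 and MD-2, which signal through MyD88 and TRIF to NF-kB, AP-1 and the interferon regulatory factors. Early genes encode cytokines, chemokines and their inhibitors, type I interferon then induces antiviral genes, and later hours are known for changes in metabolism, repair genes and proliferation. Selenow encodes selenoprotein W, a small protein with a selenocysteine residue in a thioredoxin-like fold.

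Selenow itself was read first, as a check of the labels. It lies at chr7:15917208-15922402 on the minus strand of GRCm38. Its level was 106, 39.4 and 40.8 CPM in untreated cells and 181 and 113 CPM at 24 h. Wild-type libraries had 127, 103 and 133 CPM untreated and 169, 161 and 201 CPM at 24 h. Libraries 14, 15 and 23 were thus below the wild-type libraries of their time, while libraries 13 and 22 lay within the wild-type range, which goes against their label. The libraries are therefore called labelled knock-out throughout, and results are also given without 13 and 22 and without the libraries highest for Selenow at 4 h and 8 h, 16 and 19. Selenow counts were higher at 24 h by 1.24 ± 0.40 on the log2 scale (SE, adjusted p = 0.0178, edgeR's quasi-likelihood test with Benjamini-Hochberg adjustment). That call was lost without library 14 (adjusted p = 0.0715), library 15 (0.0759) or library 22 (0.187). Total counts lay between 40953514 and 41819953 in the 5 libraries, and 21833 to 23575 genes had at least 1 count. The first principal component of the 5 libraries held 82.0% of the variance and separated untreated from treated cells. Libraries 14 and 23 belong to a set of 8 libraries, 1 per group, found in earlier work on these data. Deviations from the group means were correlated across genes for pairs of libraries from different groups. The median was 0.28 over the 28 pairs within that set (range -0.16 to 0.81) and 0.22 over the 98 pairs outside it. It was -0.24 over the 105 pairs of a library in the set with one outside it. Deviations within a group cancel out, so these medians depend on each other. The set was found in these same data, so the medians do not test it. Of the 7849 genes called below, 7836 moved the same way in library 22 against 13 and 15 and in library 23 against 14. The first of these comparisons lies outside the set and the second inside it. The genes were called from the same 5 libraries, and 7780 had no overlap between groups, which largely fixes their direction in both comparisons. That agreement is therefore no test of the set.

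After 24 h of LPS, all 45 interferon-stimulated genes tested stood above their starting level, and all 24 genes of G2 and M phase tested had fallen. Of 18083 genes tested, 7849 passed an adjusted p of 0.05, which is 43.4%. A total of 4082 genes (22.6%) were higher at 24 h and 3767 (20.8%) were lower. The median log2 fold change was 0.93 over the higher genes, -1.33 over the lower genes and -0.000506 over all genes tested. A change of at least 5 on the log2 scale was reached by 166 of the higher and 213 of the lower genes. Both 24 h libraries lay above all 3 untreated libraries for 5972 genes (33.0%) and below them for 5731 genes (31.7%). The counts for gene lists below are to be read beside these shares over all genes. Without library 23 the count of calls fell to 4920, and without libraries 13, 16, 19 and 22 it was 5015. With upper-quartile scaling 3322 genes were called higher and 4510 lower, and the median over all genes moved to -0.11.

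**Figure D1:**
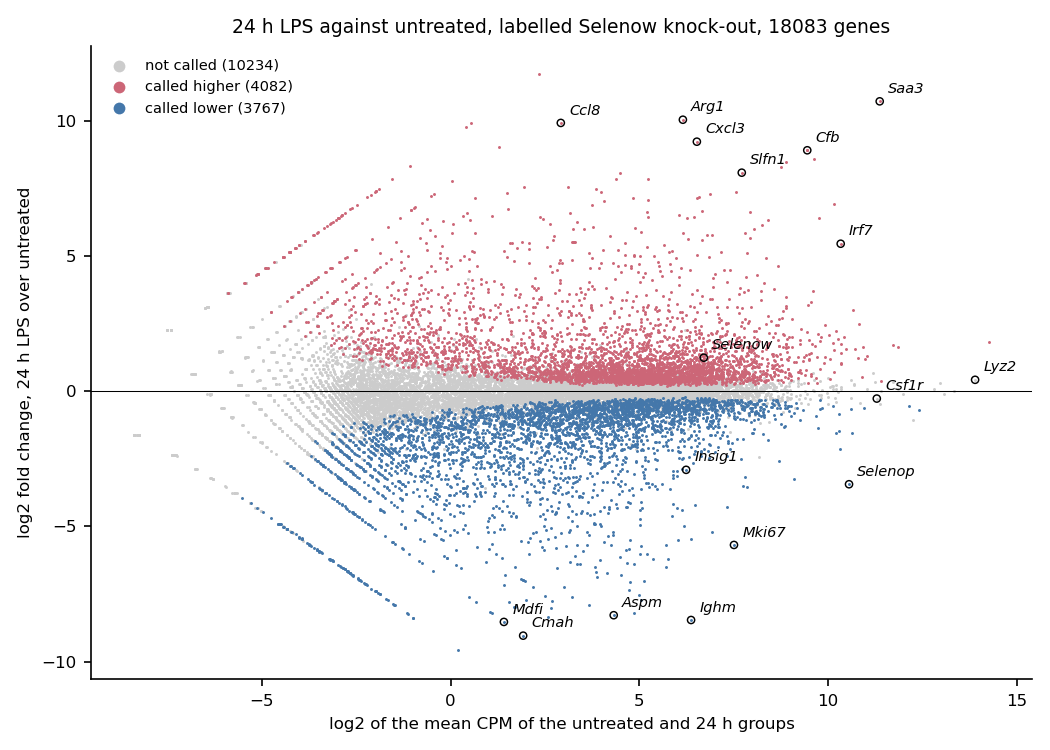
Log2 fold change of 24 h LPS over untreated against the log2 of the mean CPM of both groups, with 1 point per gene that has a count in the 5 libraries. Red points are the 4082 genes called higher and blue points the 3767 called lower, and Saa3 at 10.72 and Ighm at -8.46 are among the genes farthest from 0.

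Several secreted proteins of the acute phase and of complement rose. Saa3, a serum amyloid A protein made by macrophages (chr7:46711998-46715700), stood at 1.66, 1.79 and 5.93 CPM in untreated cells and at 4691 and 5866 CPM at 24 h. Both treated libraries were far above every untreated one, and the log2 fold change was 10.72 ± 0.86 (SE, adjusted p = 2.81e-08, edgeR). Saa1, a related acute-phase protein, had no count in untreated cells and 5.51 and 14.7 CPM at 24 h, which makes it at least 536-fold higher against a floor of 3 counts over the untreated group. Saa2 was read at 0.485 and 1.43 CPM at 24 h against no count before, at least 50.7-fold higher, and its call was lost without library 23 (adjusted p = 0.0597, edgeR). Slpi, a secreted protease inhibitor, rose from 1.09, 1.02 and 1.16 to 43.4 and 53.7 CPM, and Lcn2, which binds bacterial siderophores, from 22.5, 18.7 and 21.1 to 413 and 863 CPM. The groups did not overlap for any of these genes.

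Of 17 acute-phase and antimicrobial genes tested, 6 were higher and 4 lower, with a median log2 fold change of 0.71. The 4 lower genes were Camp, Chil1, Chil3 and Wfdc21, which granulocyte precursors also express. Camp, the precursor of a cathelicidin peptide, fell from 4.67, 4.64 and 4.53 to 0.264 and 0.188 CPM (log2 fold change -4.33 ± 0.29, SE). The call of Wfdc21 at -1.59 was lost without library 22 (adjusted p = 0.206, edgeR), without library 13 (0.0652) and without library 23 (0.0554). Among complement genes 11 of 17 tested were higher and 1 was lower, with a median of 1.49. Cfb, factor B of the alternative pathway (chr17:34856374-34862518), went from 2.87, 2.42 and 3.41 to 1059 and 1729 CPM. Both treated libraries were far above the untreated range, a rise of 8.91 ± 0.40 on the log2 scale (SE, adjusted p = 3.16e-11, edgeR). C3, the central component, rose from 39.8, 32.6 and 54.9 to 290.4 and 816 CPM.

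**Figure D2:**
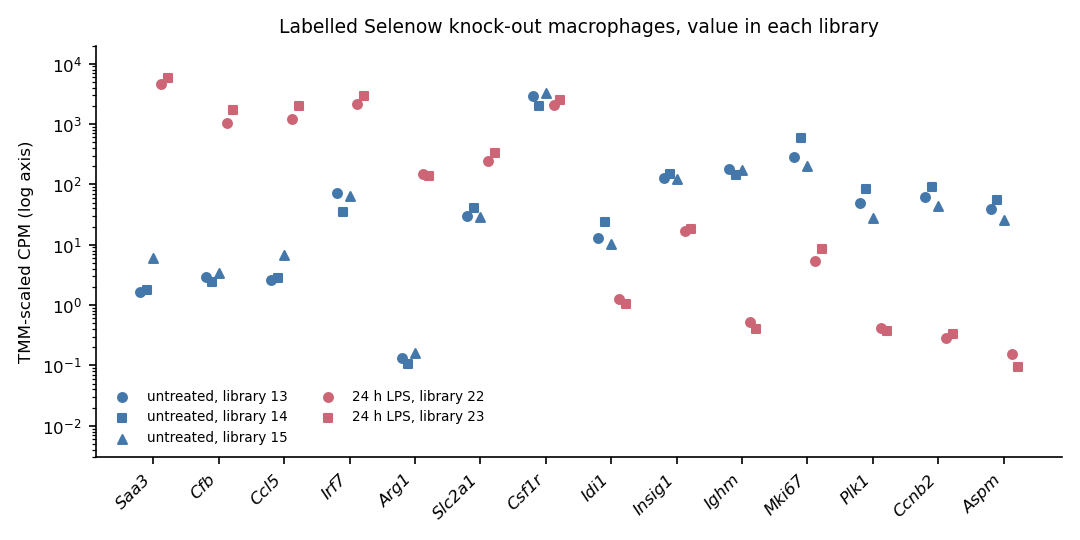
CPM of 14 genes in each of the 5 labelled knock-out libraries on a log axis, with untreated libraries in blue and 24 h LPS in red. The treated and untreated libraries are apart for every gene shown except Csf1r, the receptor of the growth factor that macrophages depend on.

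Chemokines, the ligands that recruit leukocytes, were next. Of 22 tested, 15 were higher, none was lower and 7 were not called, with a median log2 fold change of 4.40. Ccl5, which attracts T cells and monocytes, went from 2.62, 2.79 and 6.83 to 1193 and 1962 CPM (8.60 ± 0.62, SE, adjusted p = 8.99e-09, edgeR). Ccl7, a ligand of the monocyte receptor CCR2, went from 1.30, 5.05 and 1.85 to 919.6 and 788 CPM. Cxcl3, a neutrophil attractant, went from 0.115, 0.251 and 0.551 to 131 and 236 CPM (9.23 ± 0.75, SE). For each of these ligands both treated libraries lay above every untreated library, which the rule for the largest rises required. Ccl8, another monocyte attractant, had 0.0382 CPM in library 13 and none in 14 and 15, and 26.5 and 3.70 CPM at 24 h. With 2 counts in the untreated group, the ratio of summed counts was 1230 with an exact 95% interval of 339.9 to 10170 for counting error only, and library 22 stood well above library 23. Ccl22, a ligand of CCR4, was at 2.58 and 34.9 CPM at 24 h, and its call at 6.01 was lost without library 23 (adjusted p = 0.175, edgeR).

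Receptors that guide migration changed in both directions. Of 15 chemokine and formyl peptide receptors tested, 9 were higher and 3 lower, with a median of 1.26. Fpr1 and Fpr2, receptors for bacterial formyl peptides, rose by 7.15 ± 0.57 and 6.52 ± 0.50 (log2, SE). Fpr1 was at 1.32, 1.15 and 1.40 CPM before and at 64.0 and 301 CPM after LPS. Fpr3, a related receptor, rose from 0.0574, 0.107 and 0.177 to 4.27 and 16.1 CPM. Ccr7, which guides cells to lymph nodes, rose from 0.210, 0.143 and 0.118 to 2.20 and 12.4 CPM. Ccr2, the receptor of Ccl2, fell from 173, 115 and 158 to 46.5 and 25.5 CPM (-2.04 ± 0.39, SE, adjusted p = 0.000322, edgeR). Cxcr3, the receptor of Cxcl9 and Cxcl10, fell from 2.73, 2.49 and 3.09 to 0.242 and 0.281 CPM. Cxcr2 was the other receptor called lower, at -1.15, and its call was lost without library 22 (adjusted p = 0.14, edgeR).

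The cytokine genes that rose did so by amounts that differed widely. Of 29 tested, 18 were higher and none was lower, with a median of 1.73, and 9 were higher without library 23. Il1b, the precursor of interleukin-1 beta, went from 1.19, 1.90 and 5.0 to 292 and 1607 CPM (8.46 ± 0.77, SE, adjusted p = 1.09e-07, edgeR). Its level in library 23 was several times that in library 22, and both lay above all untreated libraries. Il1a, its relative, went from 0.478, 0.717 and 1.48 to 12.8 and 104 CPM, and Il1rn, the antagonist of both, from 5.97, 8.46 and 10.6 to 476 and 877 CPM. Csf3, the granulocyte growth factor, had no count in untreated cells and 0.176 and 0.891 CPM at 24 h, at least 28.3-fold higher. Ifnb1, interferon beta, had no count in untreated cells and 0.419 and 0.211 CPM at 24 h, at least 16.7-fold higher. Its call was lost when library 13 (adjusted p = 0.0675, edgeR), 14 (0.077), 15 (0.0717), 22 (0.146) or 23 (0.06) was left out.

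Tnf, Il6 and Il10 had an early peak and were far below it by 24 h. Tnf, the classical early cytokine, was at 14.9, 32.2 and 16.6 CPM untreated, at 1471, 2881 and 1545 CPM after 4 h, at 277, 719 and 257 CPM after 8 h, and at 38.2 and 70.9 CPM after 24 h. Its 24 h level was higher than untreated by 1.36 ± 0.54 (SE, adjusted p = 0.0469, edgeR), and the call was lost without library 13 (0.142), 15 (0.129) or 23 (0.366). Il6, which drives the acute-phase response, reached 524, 1033 and 408 CPM after 4 h and stood at 2.07 and 5.37 CPM after 24 h, against 0.0191, 0.304 and 0.473 CPM untreated. That difference of 3.79 ± 1.20 had an adjusted p of 0.0152 in edgeR, and it was not called without library 13 (0.0564) or 23 (0.144). Il10, an anti-inflammatory cytokine, was at 184, 48.9 and 195 CPM after 4 h but at 0.969 and 2.13 CPM after 24 h, within the range of 2.35, 0.788 and 2.32 CPM untreated (-0.23 ± 0.82, SE, adjusted p = 0.849, edgeR). Among feedback regulators of NF-kB and cytokine signalling, 26 of 30 were higher and none lower, with a median of 1.64. Socs3, which blocks cytokine receptor signalling, rose from 5.68, 5.79 and 11.9 to 189 and 368 CPM, and Dusp1, a phosphatase of MAP kinases, rose by 4.23.

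**Figure D3:**
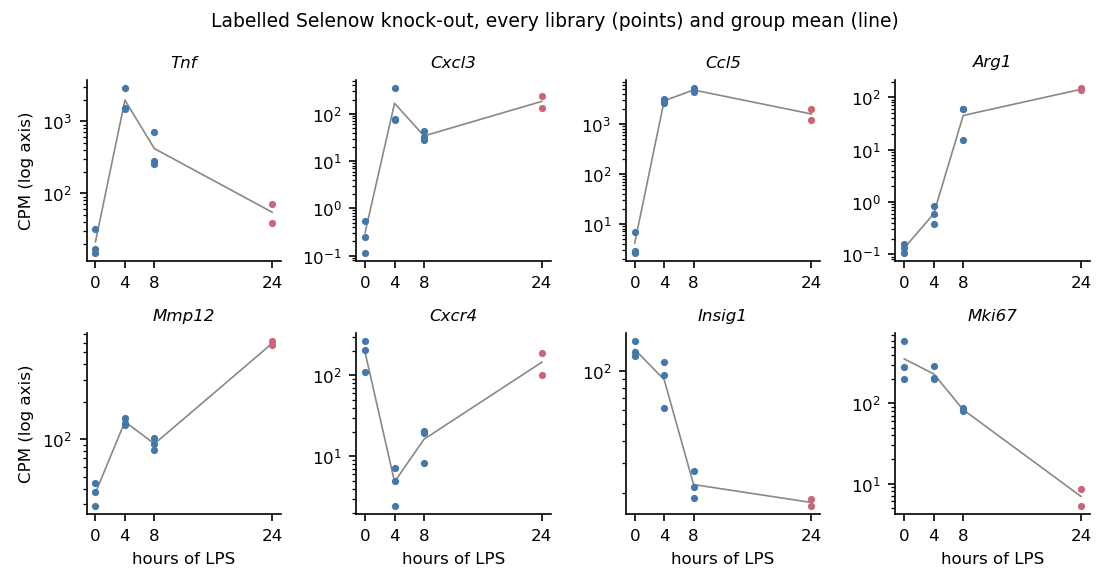
CPM on log axes at 0, 4, 8 and 24 h of LPS in the labelled knock-out libraries, with 1 point per library, 24 h in red, and lines through group means. Tnf peaks at 4 h, and Ccl5 peaks at 8 h and is lower at 24 h but still above untreated. Arg1 and Mmp12 are highest at 24 h, Cxcr4 dips and returns, and Insig1 and Mki67 are lower at 24 h than untreated.

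Interferon-stimulated genes, the antiviral genes that interferon signalling switches on, were higher without exception in this list. All 45 members tested were called higher, against 22.6% of all genes. Both treated libraries lay above all untreated ones for each of the 45, against 33.0% of all genes. The median log2 fold change was 3.0, and the list ran from 0.77 to 7.18. Irf7, the interferon regulatory factor that amplifies the response, rose from 72.8, 35.4 and 64.4 to 2109 and 2937 CPM (5.45 ± 0.33, SE, adjusted p = 1.11e-09, edgeR). Slfn4 of the Schlafen family rose from 0.841, 2.24 and 0.847 to 154 and 228 CPM, and Ifi44 from 5.64, 1.63 and 4.73 to 166 and 271 CPM. Ifi205, a member of the DNA-sensing p200 family, rose from 1.91, 1.20 and 2.21 to 89.9 and 213 CPM (6.42 ± 0.58, SE). Oasl1, a member of the oligoadenylate synthetase family, rose by 5.84 ± 0.53. The factor that binds interferon-stimulated promoters recognises the element ISRE, searched here as GAAANNGAA on both strands with overlapping matches counted. Promoters came from the RefSeq table of GRCm38.p6, in windows from 250 bases before to 50 after a start. The letters were found in 24 of 42 promoters of the 34 members with an entry (57.1%), and in 8.56% of all 32851 promoters. The 150 bases before the start are shown for Ifi205 and Isg15, the called members with the largest fold changes among those with the element within these 150 bases, with its matches in capitals. Isg15, a ubiquitin-like protein that was chosen for its promoter after its values were seen, went from 16.4, 8.31 and 14.6 to 218 and 363 CPM.
Ifi205 promoter, chr1:174031756-174031905, minus strand: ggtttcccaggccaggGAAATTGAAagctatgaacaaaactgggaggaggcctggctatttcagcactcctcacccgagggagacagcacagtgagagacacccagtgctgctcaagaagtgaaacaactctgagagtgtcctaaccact
Isg15 promoter, chr4:156200819-156200968, minus strand: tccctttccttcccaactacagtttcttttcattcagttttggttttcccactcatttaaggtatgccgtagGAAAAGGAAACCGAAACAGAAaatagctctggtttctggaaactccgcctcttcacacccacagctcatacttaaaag

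Genes of LPS sensing itself changed less. Of 23 tested, 10 were higher and 3 lower, with a median of 0.20, and without library 23 these counts were 6 and 2. Cd14, the co-receptor that hands LPS to TLR4, rose from 359, 279.9 and 323 to 937 and 1855 CPM (2.12 ± 0.20, SE, adjusted p = 1.35e-07, edgeR). Myd88, the adaptor of most Toll-like receptors, rose from 72.0, 61.5 and 70.0 to 156 and 177 CPM. Tlr4 was at 89.4, 68.5 and 84.4 CPM untreated and at 139.8 and 113 CPM at 24 h, a rise of 0.64 ± 0.20 whose call was lost without library 14 (adjusted p = 0.0507, edgeR) or 22 (0.138). Tlr5, the receptor of flagellin, fell from 4.91, 4.71 and 4.71 to 1.45 and 0.867 CPM. Among 22 transcription factors of the NF-kB, AP-1 and C/EBP families, 13 were higher and 2 lower, with a median of 0.96. Fosl1 and Fos, both AP-1 subunits, rose by 3.21 ± 0.48 and 3.12 ± 0.36. Among 26 genes of inflammasomes and cell death, 19 were higher and 1 lower, with a median of 1.05. Mefv, the gene of pyrin, rose from 1.85, 1.72 and 2.62 to 39.1 and 48.5 CPM, and Zbp1, a sensor of left-handed nucleic acids, from 24.5, 8.97 and 21.8 to 269 and 331 CPM.

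Genes of antigen presentation were read by class. Of 15 genes of MHC class I presentation, 14 were higher and none lower, with a median of 1.39. Tap1, the peptide transporter, rose from 69.5, 57.5 and 68.3 to 309 and 392 CPM, and B2m, the class I light chain, from 1784, 1194 and 1768 to 4978 and 5432 CPM. Nlrc5, the activator of class I genes, rose by 1.91 ± 0.29 (log2, SE). H2-K1, a class I heavy chain, rose by 1.92 ± 0.17, with the limit that class I genes have near-identical relatives and that reads with several mapping places were not counted. Of 12 class II genes 1 was higher and 3 were lower, with a median of -0.18. That is a smaller share than over all genes tested (43.4% called). Ciita, the master activator of class II genes, fell from 7.99, 2.87 and 9.28 to 0.771 and 1.05 CPM (-2.88 ± 0.40, SE, adjusted p = 1.6e-05, edgeR), and H2-Eb1, a class II beta chain, from 17.7, 12.7 and 15.7 to 6.87 and 5.79 CPM. H2-Aa, a class II alpha chain, fell from 34.8, 20.5 and 24.7 to 13.6 and 9.78 CPM, and that call was lost without library 23 (adjusted p = 0.0613, edgeR). Ctss, the protease that trims the invariant chain, was the class II gene that rose. Of 15 costimulatory and checkpoint ligands 9 were higher and 2 lower, with a median of 1.0, and without library 23 these counts were 6 and 1. Cd274, which encodes PD-L1, rose from 12.7, 6.65 and 17.1 to 175 and 313 CPM, and Cd86, a ligand of CD28, from 9.56, 8.04 and 11.3 to 51.0 and 62.6 CPM. Cd83, a maturation marker, fell from 42.9, 28.7 and 51.8 to 2.29 and 3.54 CPM.

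Both enzymes that compete for arginine were induced. Arg1, arginase 1 (chr10:24915221-24927484), went from 0.134, 0.107 and 0.158 to 149 and 135 CPM (10.04 ± 0.80, SE, adjusted p = 2.79e-08, edgeR). Its levels were close in both treated libraries. Nos2, which makes nitric oxide in activated macrophages, stood at 0.803, 1.61 and 4.35 CPM before and at 94.5 and 654 CPM after (7.38 ± 1.17, SE), several times higher in library 23 than in library 22. Ass1, which regenerates arginine from citrulline, went from 7.23, 14.4 and 6.42 to 252 and 705 CPM. Of 16 genes of arginine and polyamine metabolism 8 were higher and 1 was lower, with a median of 0.87. The lower gene was Sat1, a polyamine acetyltransferase, at -0.68, and its call was lost without library 15 (adjusted p = 0.0594, edgeR) or 22 (0.0991). Slc7a2, an arginine transporter, was at 9.56 and 84.6 CPM at 24 h, and its call at 3.66 was lost without library 23 (adjusted p = 0.336, edgeR).

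Acod1, which makes itaconate from a citric acid cycle intermediate, went from 11.8, 18.5 and 26.2 to 630.4 and 3913 CPM (6.91 ± 0.80, SE, adjusted p = 1.86e-06, edgeR). The cycle enzymes around it moved by far smaller amounts. Of 24 genes of itaconate and the cycle, 4 were higher and 6 lower, with a median of -0.11. That is a share near that over all genes tested (43.4% called), and without library 23 these counts were 1 and 4. Suclg2, a subunit of succinyl-CoA ligase, fell from 14.9, 16.6 and 14.9 to 6.65 and 3.38 CPM. In prostaglandin and leukotriene synthesis 8 of 17 genes were higher and 6 lower, with a median of 0.22. Ptgs2, the inducible cyclooxygenase, rose from 0.803, 2.02 and 3.05 to 67.8 and 330.1 CPM, and Ptges, the prostaglandin E synthase that acts after it, rose by 4.76 ± 0.98. Hpgd, which degrades prostaglandins, fell from 125, 74.9 and 107 to 3.44 and 0.492 CPM (-5.69 ± 0.61, SE). On the leukotriene side Alox5, the 5-lipoxygenase, fell from 56.7, 60.6 and 36.5 to 4.34 and 4.13 CPM, and Ltc4s, leukotriene C4 synthase, from 19.2, 14 and 20.3 to 0.793 and 0.469 CPM.

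Glycolysis rose as a group of transcripts. Of 25 genes of glycolysis and lactate export 17 were higher and 3 lower, with a median of 1.49. Slc2a1, the glucose transporter GLUT1, went from 30.0, 40.0 and 28.3 to 244 and 327 CPM (3.12 ± 0.44, SE, adjusted p = 1.58e-05, edgeR). Slc16a3, which exports lactate, went from 29.4, 40.3 and 28.3 to 365 and 513 CPM (3.75 ± 0.56, SE). Pfkfb3, whose product activates phosphofructokinase, rose by 2.62 ± 0.46, and Tpi1, triosephosphate isomerase, by 2.07 ± 0.42. The lower genes were Aldoc, Pfkm and Slc2a3, that is, other isoforms of the aldolase, phosphofructokinase and glucose transporter steps. Pfkm was at 14.6, 13.9 and 15.6 CPM before and at 6.72 and 6.94 CPM after. Slc2a3 was lower by -1.37, and its call was lost without library 23 (adjusted p = 0.051, edgeR). Of 20 hypoxia response genes 10 were higher and 2 lower, with a median of 1.23. Hif1a, the hypoxia-inducible factor that NF-kB also induces, rose from 100.6, 122 and 99.8 to 334 and 413 CPM, while Epas1, its paralog HIF-2 alpha, fell from 5.49, 6.0 and 5.89 to 1.01 and 0.375 CPM. Ankrd37, a known HIF target, rose from 0.402, 0.376 and 0.394 to 4.36 and 5.20 CPM, and Ak4, an adenylate kinase, from 0.134, 0.287 and 0.118 to 15.8 and 19.7 CPM. The core of the HIF site, ACGTG, was found on either strand in 18 of 37 promoters of 24 glycolysis genes (48.6%) and in 15 of 24 promoters of 16 hypoxia genes (62.5%), against 19.6% of all promoters. The 150 bases before the start are shown for the glycolysis gene with the largest rise and for Slc2a1, with ACGTG in capitals.
Slc16a3 promoter, chr11:120948917-120949066, plus strand: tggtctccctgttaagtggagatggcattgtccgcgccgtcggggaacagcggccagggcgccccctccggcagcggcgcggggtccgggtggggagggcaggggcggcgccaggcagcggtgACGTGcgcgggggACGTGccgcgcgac
Slc2a1 promoter, chr4:119108595-119108744, plus strand: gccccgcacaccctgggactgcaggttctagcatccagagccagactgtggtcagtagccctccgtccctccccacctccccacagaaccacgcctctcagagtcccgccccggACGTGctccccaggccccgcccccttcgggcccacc

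Messenger RNAs encoded by the mitochondrial genome fell. Of 13, 11 were lower and none higher, with a median of -1.18. Both treated libraries were below all untreated ones for 12, against 31.7% of all genes. The summed level of the 13 mRNAs went from a range of 11980 to 12530 CPM in untreated cells to a range of 5862 to 8150 CPM at 24 h. mt-Cytb, cytochrome b, was at 1650, 1861 and 1776 CPM before and at 500.0 and 719 CPM after (-1.53 ± 0.16, SE, adjusted p = 7.51e-07, edgeR). mt-Nd6, which is encoded on the other strand from the rest, was at 446, 486 and 549.6 CPM before and at 297 and 482 CPM after, and its groups overlapped (-0.34 ± 0.24, SE, adjusted p = 0.261, edgeR). The counting ignored strand, so reads of overlapping mitochondrial genes cannot be told apart. Of 35 nuclear-encoded subunits of complex I, 7 were higher and 2 lower, with a median of 0.15. That is a smaller share than over all genes tested (43.4% called). The counts of called subunits without library 15, 22 or 23 were 5, 5 and 3.

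Cholesterol synthesis was lower throughout. All 23 genes of cholesterol synthesis and uptake that were tested were called lower, against 20.8% of all genes, with a median of -1.97. Both treated libraries lay below all 3 untreated ones for each, against 31.7% of all genes. Idi1, isopentenyl diphosphate isomerase, fell from 12.9, 23.4 and 10.4 to 1.26 and 1.05 CPM (-3.75 ± 0.45, SE, adjusted p = 2.62e-06, edgeR), and Cyp51, lanosterol demethylase, from 71.6, 116 and 57.7 to 7.60 and 5.67 CPM (-3.62 ± 0.33, SE). Insig1, which retains the SREBP activator in the endoplasmic reticulum, fell from 129, 148 and 123 to 17 and 18.5 CPM. Library 14 was the highest of the untreated libraries for each of these 3 genes. The letters TCACNCCAC of the sterol element were found in 1 of 19 promoters (5.26%), that of Hmgcs1, against 1.24% of all promoters. Of 14 targets of the liver X receptor and efflux genes, 3 were higher and 5 lower, with a median of -0.57. The higher ones were Nr1h3, which encodes LXR alpha, and the cholesterol exporters Abca1 and Abcg1. Nr1h3 went from 3.94, 2.47 and 3.94 to 27 and 41.2 CPM, Abcg1 rose by 1.66 ± 0.17 and Abca1 by 1.28 ± 0.26. Scd1, a fatty acid desaturase, fell from 31.5, 54.1 and 18.7 to 2.25 and 1.27 CPM.

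Genes of mitosis fell to near 0. All 24 genes of G2 and M phase were called lower, against 20.8% of all genes, with a median of -5.71, and the smallest change was that of Aurka, a mitotic kinase, at -3.37. The summed level of the 24 genes went from between 1033 and 2898 CPM in untreated libraries to between 56.4 and 58.6 CPM at 24 h. Plk1, the polo-like kinase, fell from 49.3, 82.5 and 27.4 to 0.419 and 0.375 CPM (-7.05 ± 0.64, SE, adjusted p = 1.19e-07, edgeR). Mki67, the marker of cycling cells, fell from 279.6, 592 and 199 to 5.29 and 8.58 CPM. Aspm, a spindle pole protein (chr1:139454772-139494091), fell from 38.4, 55.2 and 26 to 0.154 and 0.0938 CPM, and Ccnb2, cyclin B2, from 62.5, 89.6 and 43.9 to 0.286 and 0.328 CPM. Library 14 held the highest and library 15 the lowest untreated level of each, and the treated libraries were far below both. In a bulk sample, fewer cells in division and less of these RNAs in each dividing cell cannot be told apart. Other genes of division among the 15 largest falls were Cenpf, Kif14, Esco2, Shcbp1 and Pif1. Pif1, a DNA helicase, had 3 counts over the treated group, a ratio of 355.3 with an exact 95% interval of 121.4 to 1725.

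Mitotic promoters are known for the element CHR and for CCAAT boxes. In the promoter windows of 20 members, TTTGAA on either strand was found in 16 of 21 (76.2%) against 17.9% of all promoters, and CCAAT in 19 of 21 (90.5%) against 37.4%. The 150 bases before the start are shown for Ube2c, a ubiquitin-conjugating enzyme, Kif11, a spindle motor, and Cdc20, an activator of the anaphase-promoting complex, which are members with large falls that hold both elements there. Capitals mark CCAAT or ATTGG and TTTGAA or TTCAAA. Ube2c fell from 58.3, 94.0 and 39.2 to 0.308 and 0.375 CPM, Kif11 from 58.1, 110.5 and 37.2 to 0.529 and 0.516 CPM, and Cdc20 from 45.9, 70.4 and 32.7 to 0.969 and 0.727 CPM.
Ube2c promoter, chr2:164769779-164769928, plus strand: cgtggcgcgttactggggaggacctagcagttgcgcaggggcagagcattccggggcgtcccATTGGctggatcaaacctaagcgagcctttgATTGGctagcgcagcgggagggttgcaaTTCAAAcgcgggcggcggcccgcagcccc
Kif11 promoter, chr19:37376232-37376381, plus strand: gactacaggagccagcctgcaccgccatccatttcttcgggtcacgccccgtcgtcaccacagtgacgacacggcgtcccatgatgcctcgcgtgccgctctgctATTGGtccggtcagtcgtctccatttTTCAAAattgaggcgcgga
Cdc20 promoter, chr4:118437344-118437493, minus strand: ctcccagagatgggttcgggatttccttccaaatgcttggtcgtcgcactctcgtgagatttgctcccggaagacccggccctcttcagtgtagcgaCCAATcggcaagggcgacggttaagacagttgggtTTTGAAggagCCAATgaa

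Genes of DNA replication and S phase were lower in 21 of 28 cases and higher in none, with a median of -2.26. That count rested on few libraries: it was 5 without library 23, 9 without library 14 and 11 without library 22. Rrm2, a subunit of ribonucleotide reductase, fell from 22.3, 74.2 and 9.28 to 1.06 and 0.656 CPM (-5.35 ± 1.11, SE), and Tk1, thymidine kinase, from 26.2, 62.9 and 13.7 to 1.45 and 1.55 CPM. Of 22 genes of cell cycle entry and CDK inhibition 3 were higher and 8 lower, with a median of -0.36. Without library 22 or 23 these counts were 2 and 5. Over all genes tested 22.6% were higher and 20.8% lower. Cdkn1a, the CDK inhibitor p21, rose from 52.6, 79.2 and 49.6 to 286 and 486 CPM (2.67 ± 0.37, SE, adjusted p = 1.26e-05, edgeR), and Ccnd2, cyclin D2, from 11.9, 37.1 and 6.24 to 97.4 and 144 CPM. Ccnd1, cyclin D1, was at 111, 363 and 49.4 CPM untreated and at 151 and 143 CPM at 24 h, so the groups overlapped (-0.25 ± 0.59, SE, adjusted p = 0.771, edgeR). Myc was at 10.1, 31.1 and 5.65 CPM and at 29.7 and 21.9 CPM (0.72 ± 0.66, SE, adjusted p = 0.398, edgeR). Library 14 was the highest untreated library for both, and without it Ccnd1 was higher at 24 h by 0.87 without a call and Myc was called higher (adjusted p = 0.0448, edgeR).

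Among 20 selenoproteins tested, the family Selenow belongs to, 4 were higher and 4 lower, a share near that over all genes tested (22.6% higher and 20.8% lower), with a median of -0.07, and without library 23 these counts were 2 and 2. Selenop, the secreted carrier of selenium, went from 2876, 1072 and 4314 to 393 and 114 CPM (-3.44 ± 0.93, SE), and Gpx3, the extracellular glutathione peroxidase, from 90.8, 42.5 and 133 to 24.4 and 15 CPM. Both calls were lost without library 23 (adjusted p = 0.0891 for Selenop and 0.13 for Gpx3, edgeR). Selenoh, a nuclear selenoprotein, fell from 25.6, 33.9 and 19.1 to 6.15 and 3.66 CPM (-2.42 ± 0.50, SE, adjusted p = 0.000725, edgeR). Selenos, which acts in the removal of misfolded proteins, rose from 33.6, 32.8 and 36.1 to 62.8 and 61.6 CPM. Gpx1, the main cytosolic glutathione peroxidase, was at 592, 500.1 and 505 CPM and at 407 and 451 CPM, with an adjusted p of 0.0539 (-0.32, edgeR). It was called lower without library 14 (0.0468), in library 22 against 13 and 15 (0.0281), with 2 other scalings (0.0475 and 0.0151), with a filter of 1 CPM (0.0325), with limma-voom (0.0469) and with DESeq2 (0.0232).

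Antioxidant genes under NRF2 were higher in 12 of 24 cases and lower in 1, with a median of 0.52, and without library 23 these counts were 6 and 1. Slc7a11, the cystine importer, rose from 6.63, 7.63 and 6.89 to 62.0 and 251 CPM, and Prdx5, a peroxiredoxin, from 96.8, 97.0 and 108 to 620.4 and 968 CPM (2.98 ± 0.21, SE, adjusted p = 5.64e-09, edgeR). Hmox1, heme oxygenase 1, rose from 549.9, 545 and 416 to 1477 and 2002 CPM, and Fth1, the ferritin heavy chain, from 8963, 7589 and 9593 to 25650 and 35840 CPM. Of 9 genes of the NADPH oxidase, which makes superoxide, 6 were higher and 1 lower, with a median of 0.72, and without library 23 these counts were 3 and 0. Ncf4 and Rac2, cytosolic subunits, rose by 1.26 ± 0.13 and 1.10 ± 0.13.

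Of 24 proteasome subunits 23 were higher and none lower, with a median of 0.77. Both treated libraries lay above all untreated ones for all 24, against 33.0% of all genes. Psmb5, a catalytic subunit, rose from 44.7, 55.2 and 40.1 to 115 and 154 CPM (1.53 ± 0.17, SE, adjusted p = 9.67e-07, edgeR). Of 22 genes of the unfolded protein and integrated stress responses 15 were higher and 1 lower, with a median of 1.03. Ddit3, the factor CHOP, rose from 8.91, 7.65 and 10.6 to 80.6 and 75.3 CPM, Trib3, a pseudokinase induced by it, from 4.55, 7.63 and 3.35 to 57.1 and 47.1 CPM, and Atf5 from 28.9, 37.1 and 27.4 to 181 and 152 CPM. Of 16 heat shock chaperones 8 were higher and none lower, with a median of 0.50. Of 30 genes of lysosome and autophagy 8 were higher and 7 lower, with a median of -0.05. That is a share near that over all genes tested (43.4% called). Among 18 sestrins and mTOR regulators 5 were higher and 10 lower, with a median of -0.66, and without library 23 these counts were 2 and 5. Sesn1, a sestrin that restrains mTORC1, fell from 117, 75.0 and 124 to 16.3 and 8.30 CPM, while Sesn2, its stress-induced relative, rose from 24.9, 25.4 and 23.9 to 69.0 and 68.2 CPM. Of 17 clock genes 2 were higher and 9 lower, with a median of -0.42. Per3 fell from 10.6, 6.72 and 12.7 to 1.12 and 0.586 CPM and Dbp, a clock output factor, from 16.3, 8.38 and 25.5 to 2.93 and 2.98 CPM, while Nfil3, which binds the same sites as Dbp, rose by 1.96 ± 0.24.

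**Figure D4:**
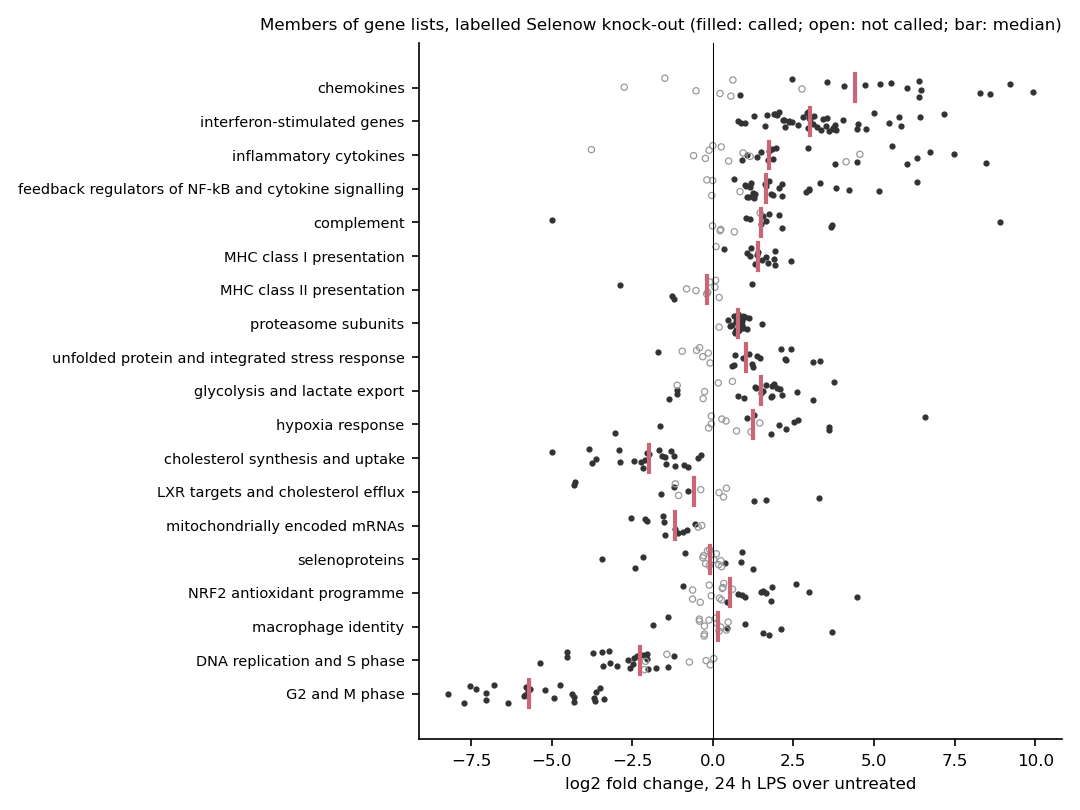
Log2 fold change of 24 h LPS over untreated for the members of 19 gene lists, with filled points for called genes, open points for genes not called and a bar at each list's median. The lists run from mitosis, with all members below 0 and a median of -5.71, to chemokines with a median of 4.40.

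The label of the cell type was checked against macrophage markers. Lyz2, lysozyme, was at 14550, 9626 and 14860 CPM untreated and at 18380 and 16480 CPM at 24 h, and Csf1r, the receptor of the growth factor M-CSF, at 2954, 2017 and 3248 CPM and at 2059 and 2476 CPM. Neither was called (adjusted p = 0.261 for Lyz2 and 0.298 for Csf1r, edgeR), and Cd68, Mertk and Mpeg1 were not called either. With the library set as a term Lyz2 was called higher (0.53, adjusted p = 0.0328, edgeR). In library 22 against 13 and 15, outside the set, Lyz2 was called higher (0.33) and Csf1r (-0.58) and Mpeg1 (-0.41) lower. Of 20 genes of macrophage identity 6 were higher and 2 lower, a share near that over all genes tested (43.4% called), with a median of 0.16, and without library 23 these counts were 5 and 0. Fcgr1, the high-affinity receptor of IgG, rose from 123, 96.4 and 112 to 1464 and 1428 CPM (3.71 ± 0.20, SE), Adgre1, which encodes F4/80, from 642, 483 and 648 to 1711 and 2270 CPM, and Itgam, which encodes CD11b, from 762, 751 and 653 to 2172 and 2045 CPM. Of 25 scavenger and lectin receptors 12 were higher and 6 lower, with a median of 1.18. Marco, a scavenger receptor for bacteria, rose from 0.115, 0.125 and 0.256 to 23.1 and 66.1 CPM, and Msr1, scavenger receptor A, from 120.1, 206 and 89.7 to 1315 and 1411 CPM. Clec10a, a galactose-binding lectin, fell from 13.5, 4.50 and 17.1 to 0.441 and 0.0703 CPM, and Cd163, the receptor of haptoglobin and hemoglobin, from 30.6, 21.9 and 26.3 to 4.60 and 1.80 CPM. Mrc1, the mannose receptor, was at 499.6, 394 and 559 CPM untreated and at 173 and 4.76 CPM at 24 h. The treated libraries lay far from each other, and Mrc1 was not called (-2.45 ± 1.09, SE, adjusted p = 0.076, edgeR). It was called lower with the library set as a term (-2.86, 0.0167), in library 22 against 13 and 15 (-1.60, 0.000108), without library 22 (-6.66, 0.00206), without libraries 13, 16, 19 and 22 (0.00803), with limma-voom (0.0118) and with DESeq2 (0.0459).

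Of 26 genes of tissue repair and vascular growth 14 were higher and 3 lower, with a median of 2.0. Serpinb2, an inhibitor of plasminogen activators, rose from 0.134, 0.107 and 0.295 to 17.7 and 65.0 CPM, and Timp1, an inhibitor of metalloproteinases, from 0.287, 1.47 and 0.788 to 109 and 38.4 CPM. Mmp13, a collagenase, rose from 7.88, 6.84 and 9.67 to 608 and 434 CPM, and Inhba, a subunit of activin A, from 0.382, 1.27 and 0.453 to 14.3 and 34.6 CPM. Igf1, a growth factor of resting macrophages, fell from 469, 311 and 474 to 178 and 258 CPM. Of 17 markers of alternative activation, the state induced by interleukin-4, 6 were higher and 6 lower, with a median of -1.81. Arg1 led those that rose, with Tgm2, a transglutaminase, at 3.08 ± 0.25. Irf4, a factor of that state, fell from 4.25, 2.22 and 4.17 to 0.132 and 0.680 CPM. Among the genes with the largest rises outside these lists were Slfn1 at 8.08 ± 0.38, Ly6i at 7.83 ± 0.46 and Cd38, an enzyme that consumes NAD, at 7.48 ± 0.67.

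Markers of neutrophils and B cells were present in untreated cells, and most of those tested were lower at 24 h. Of 14 markers of neutrophils and their precursors 12 were lower and 1 higher, with a median of -4.00 when genes without counts are set at their bound, and Ly6g was below the filter on low counts. Their summed level ranged from 241 to 266 CPM untreated and from 177 to 201 CPM at 24 h. Ngp, a granule protein, fell from 60.0, 63.8 and 63.0 to 2.38 and 1.64 CPM, and Retnlg had 2 counts at 24 h against 7.61, 3.40 and 6.30 CPM, a ratio of 251.5 with an exact 95% interval of 69.4 to 2080. Mmp8, a neutrophil collagenase that made up most of the sum at 24 h, rose from 49.1, 27.6 and 48.6 to 151 and 178 CPM. Of 5 markers of B cells tested 2 were lower. Ighm, the heavy chain of IgM (chr12:113418558-113422730), fell from 177, 145 and 173 to 0.529 and 0.399 CPM (-8.46 ± 0.64, SE, adjusted p = 1.4e-08, edgeR), and Cd79b, a part of the B cell receptor, from 2.08, 1.67 and 2.21 to 0.154 and 0.117 CPM. Cd79a was below the filter on low counts. Cmah, which makes a sialic acid (chr13:24327404-24477377), fell from 6.94, 9.35 and 6.42 to 0 and 0.0234 CPM, a ratio of 670.9 with an exact 95% interval of 120.2 to 26520 on 1 count. Markers of T and NK cells summed to 2.38 to 10.9 CPM before and 0.469 to 1.41 CPM after, and those of stromal cells to 4.21 to 35.2 CPM and 8.24 to 48.7 CPM. Those of dendritic cells summed to 86.7 to 119 CPM and 772 to 952 CPM, most of it from Bst2, which is also among the interferon-stimulated genes (762 and 935 CPM at 24 h). Those of erythroid cells and megakaryocytes summed to 24.0 to 50.4 CPM and 74.2 to 425 CPM, most of it from the platelet chemokine Pf4 (409 and 69.9 CPM at 24 h), whose call was lost without library 22 (adjusted p = 0.288, edgeR). Of 11 dendritic cell markers tested 3 were higher and 6 lower, of 11 osteoclast markers 3 and 4, of 7 markers of erythroid cells and megakaryocytes 3 and 2, and of 3 mast cell and basophil markers 0 and 1. The part of other cells in the falls of the acute-phase genes Camp and Chil3, which are also neutrophil markers, was not tested.

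Without libraries 13, 16, 19 and 22, which leaves libraries 14 and 15 against library 23, all 24 genes of G2 and M phase were still lower, as were 18 of 23 cholesterol genes, and 44 of 45 interferon-stimulated genes, 14 of 22 chemokines, 20 of 24 proteasome subunits and 16 of 25 glycolysis genes were higher. The lone library at 24 h is then assumed to vary like the other groups. Mitochondrially encoded mRNAs had 7 lower genes, S phase 8 lower, the stress response list 9 higher and none lower, LPS sensing 5 higher and 2 lower, the itaconate and cycle list 1 and 3, nuclear-encoded subunits of complex I 1 and 1, cell cycle entry 2 and 4, selenoproteins 3 and 2, and mTOR regulators 2 and 5. Of the genes named above, the call of Igf1, which held without any single library, was lost (log2 fold change -0.60). The calls of Tnf, Il6, Ifnb1, Tlr4, Slc2a3, Gpx3, Sat1, Cxcr2, Wfdc21 and Pf4 were lost as well.

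Between 8 h and 24 h of LPS the response had moved on in both directions. In the labelled knock-out cells 6272 of 18083 genes (34.7%) differed between 24 h and the 3 libraries at 8 h, with 3237 (17.9%) higher and 3035 (16.8%) lower at 24 h, and the median over all genes was 0.02. Without library 22 the count was 3168, and without libraries 13, 16, 19 and 22 it was 2106. With relative log expression scaling in edgeR, 2736 genes were higher and 3367 lower. Of the 4082 genes higher than untreated, 976 were lower at 24 h than at 8 h, 852 were higher and 2254 were not called. The 45 interferon-stimulated genes held 36 that were lower than at 8 h, and the 30 feedback regulators 23 lower and 1 higher. Isg15 was at 1123, 775 and 1024 CPM at 4 h and at 1085, 1255 and 1109 CPM at 8 h, and had fallen by 1.98 ± 0.41 (log2, SE) from 8 h to 24 h, a call that was lost without libraries 13, 16, 19 and 22 (adjusted p = 0.0676, edgeR). Of the 24 genes of G2 and M phase 20 were lower still. Cholesterol genes had 9 higher and 3 lower, so several were past their lowest level. Of 22 genes of ribosome biogenesis 17 were higher than at 8 h and none lower, with a median of 0.99. Against untreated cells 6 of them were higher and 2 lower, with a median of 0.34. That is a smaller share than over all genes tested (43.4% called). Without library 13 these counts against untreated were 3 and 2, and without library 15 they were 3 and 1.

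Eps8, which shapes the actin cytoskeleton, was the gene with the largest rise since 8 h under the rule for named genes, from 2.34, 1.75 and 3.32 to 73.0 and 27.4 CPM (4.34 ± 0.54, SE, adjusted p = 1.15e-05, edgeR). Cxcr4, the receptor of Cxcl12, was at 204, 109 and 262 CPM untreated and at 19.7, 8.33 and 20.8 CPM at 8 h, and stood at 188 and 100.9 CPM at 24 h, a rise of 3.15 ± 0.54 since 8 h (adjusted p = 0.000231, edgeR). Rnf150, Syn1, Inpp4b and Rhobtb1 rose by 3.56, 3.31, 3.20 and 3.14. Among the falls, Il19, a cytokine of the interleukin-10 family, went from 5.86, 4.17 and 5.36 CPM at 8 h to no count at 24 h, at least 150.5-fold lower. Slamf1, a co-receptor of leukocytes, fell from 22.4, 12.2 and 26.5 to 0.198 and 0.0469 CPM, and Ptx3, a soluble pattern recognition protein, from 6.58, 14 and 5.99 to 0 and 0.141 CPM. Lipg, endothelial lipase, fell from 227, 373 and 196 to 3.02 and 2.44 CPM, and Olr1, a receptor for oxidized LDL, from 37.4, 43.9 and 35.1 to 0.132 and 0.867 CPM. The rule for named genes asked for no overlap between the groups at 8 h and 24 h, so their separation here is no result.

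Wild-type cells given LPS for 24 h served to ask whether the response differed by genotype. The test was the difference of both responses in the same fit, and edgeR called none of 18083 genes (0.0%), with 1835 at an unadjusted p under 0.05. DESeq2 called 131 genes, limma-voom 2, and edgeR with the library set as a term 16. Of the 7849 genes called in the labelled knock-out cells, 7696 had the same sign in wild-type cells and 6704 were called there in the same direction. Ngp, Ltf and Mmp12 were among the genes nearest to a call and were chosen after their values were seen. Ngp fell by 4.95 in the labelled knock-out and by 6.67 in wild-type cells (adjusted p of the difference 0.058, edgeR). With the library set as a term the difference was called for Ngp (0.02) and Ltf (0.037), and DESeq2 called it for Ngp and Ltf (0.000476 each) and Mmp12 (0.000604). Mmp12, macrophage elastase, rose by 4.00 ± 0.30 in the labelled knock-out, from 44.4, 29 and 37.7 to 568 and 613 CPM, and by 5.98 ± 0.32 in wild-type cells. Ltf, lactoferrin, fell by 4.34 and 5.94. Il1b was higher by 8.46 and 10.96, Nos2 by 7.38 and 10.63 and Arg1 by 10.04 and 12.27, and the adjusted p of the difference was 0.38 for Il1b, 0.46 for Nos2 and 0.64 for Arg1 (edgeR). A p above the threshold does not show that the genotypes respond alike.

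**Figure D5:**
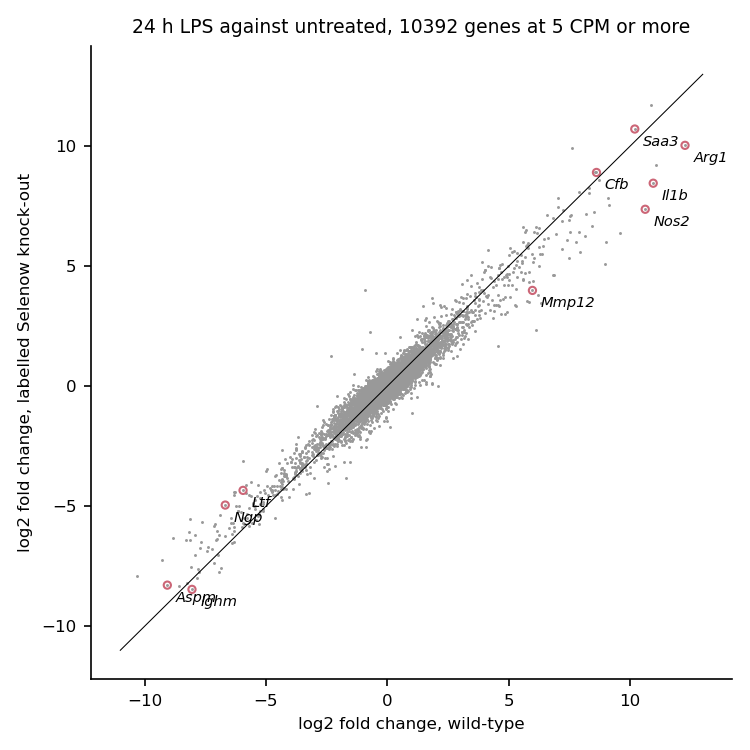
Log2 fold change of 24 h LPS over untreated in labelled knock-out cells against that in wild-type cells for 10392 genes with a mean of at least 5 CPM, with the line of equality. Most points lie near the line, and Mmp12 (4.00 against 5.98) and Ngp (-4.95 against -6.67) are among those off it.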

How the data were processed

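RNA-seq libraries of 23 samples in 8 groups of genotype and time were used. The deposited table holds whole-number counts for 55401 genes; per the submitters' processing notes the authors aligned reads with HISAT2 (version not given) to GRCm38 and counted them with featureCounts 2.0.1 on Ensembl release 101, and the command recorded in the file header shows that strand was ignored, that a read pair counted for each gene it overlapped, and that multi-mapped reads were not counted. Symbols were given for 55141 identifiers and not for 260.

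Genes were filtered with filterByExpr, which left 18083, scaled with TMM and fitted in one model of all libraries with a mean per group (edgeR 4.0.16 in R 4.3.3, quasi-likelihood F-test, Benjamini-Hochberg adjustment over all genes, called at 0.05). A group without counts was set at a floor of 3 counts, and intervals and floors cover counting error only. On simulated counts of 17889 genes for this comparison, 11 of 50 genes changed 1.5-fold, 33 of 50 changed 2-fold, 47 of 50 changed 4-fold and 50 of 50 changed 8-fold were called, with 6 of 17689 unchanged genes. The changed genes were drawn only from genes with high mean counts and were far fewer than the genes called in the data. These rates therefore do not cover genes with low counts and do not describe the real comparison. Alternatives were other scalings, filters, sample sets, thresholds, limma-voom (limma 3.58.1), DESeq2 1.42.0 and each library left out.

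Named genes were Selenow, the 15 highest and 15 lowest fold changes at 24 h against untreated with at least 5 CPM in the higher group and no overlap, 6 each against 8 h, up to 5 called members per direction of a list, and fixed defining genes. For the 15 and 6 genes per direction, the lack of overlap was part of the rule and is no result. Aurka, Cdc20, Isg15, Kif11, Ltf, Mmp12 and mt-Nd6 were added after their values were seen. The members and all lists were chosen with earlier results of these data known. Promoters are from RefSeq, GRCm38.p6.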

Additional observations from a re-analysis of the deposited data

How the results depend on the processing

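The count of genes called between 24 h and untreated, 7849, was 3763 when a fold of at least 1.5 was asked for, 5015 without libraries 13, 16, 19 and 22, and between 4920 and 7468 with 1 library left out. The count between 24 h and 8 h, 6272, was 2117, 2106 and 3168 to 5527 under the same settings, and 3685 at an adjusted p under 0.01. The genotype difference, with no gene called, gave 1 gene with relative log expression scaling, 8 without a filter on low counts, 3 with at least 1 CPM in 2 libraries, 1 with only the groups compared, 16 with the library set as a term, 2 with limma-voom, 131 with DESeq2 and 0 to 4 with 1 library left out. For the 24 h response the sign turned for Ccnd1 in the libraries outside the set of 8 (0.93), with limma-voom (0.23) and over the libraries left out (-0.69 to 0.87). It also turned without libraries 13, 16, 19 and 22 for Mertk (-0.12), Il10 (0.47) and Mpeg1 (0.028), and with 1 library left out for Mertk (-0.17 to 0.49), Il10 (-0.90 to 0.24) and Mpeg1 (-0.28 to 0.048). Ccnd1, Il10 (-1.26) and Mpeg1 (-0.41) were called in the libraries outside the set of 8, as were Myc (1.92) and mt-Nd6 (-0.73), none of which passed with all libraries. Ccnd1, Mertk, Il10 and Mpeg1 were not called in the other settings named here, and the cause was not tested. With limma-voom the calls of Il6 (adjusted p = 0.0988), Ccl22 (0.084), Ifnb1 (0.168) and Wfdc21 (0.0639) were lost. In edgeR with only the groups compared, those of Tnf (0.0516), Sat1 (0.0572) and Selenow (0.0963) were lost. With upper-quartile scaling in edgeR that of Tnf was lost (0.0646). No paired analysis was possible because replicate numbers run from 1 to 23 without a number shared between groups.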
